A study of Mus musculus with 2 samples.

Results

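Dividing Dlx-positive neuroblasts were cells that carried transcripts of the Dlx interneuron lineage and of the mitotic machinery at the same time. They were chosen by measured values, in cells with at least 500 detected genes and at most 10% mitochondrial UMIs (unique molecular identifiers, each standing for 1 captured RNA molecule). A member had 3 or more UMIs summed over Dlx1, Dlx2, Dlx5, Dlx6os1, Dcx and Gad2, and 3 or more summed over Mki67, Top2a, Cdk1, Ube2c and Cenpf. Of 13278 kept cells, 855 were members (6.44%, exact binomial 95% interval 6.03 to 6.87%). These 11 genes fixed the choice, and both comparison groups used below were cut by the same genes, so all levels are given as a description.

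The cells came from C57/Bl6J mouse neural stem cells of the postnatal subventricular zone, a germinal layer beside the lateral ventricles. The cultures were expanded and then deprived of the growth factors EGF and FGF. One library was treated with 20HC, an oxysterol, at 1 µM, and the other received DMSO vehicle, and both were taken on day 3. RNA was counted with the 10x Chromium Single Cell 3′ chemistry. The treatment text of the vehicle library also names 20HC, so its group was taken from its title. Each barcode carries the number 1 or 2 and nothing ties a number to a library. The treatment comparison was therefore not made, and the pooled matrix was handled as 1 sample with values given for barcode set 1 and barcode set 2.

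Subventricular progenitors that express Dlx homeobox factors give rise to GABAergic interneurons of the olfactory bulb. In this lineage, stem cells pass through transit-amplifying progenitors to neuroblasts, which switch on Dcx and β-III tubulin, and such neuroblasts can divide while they migrate. Mitotic transcripts such as Top2a and Ube2c accumulate in G2 and M phase and are cleared afterwards, whereas the genes of DNA replication peak earlier.

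Members held a median of 3248 UMIs (1212 to 9452) and 1488 genes, with a median of 1.83% mitochondrial UMIs. Barcode set 1 had 610 members among 9869 kept cells (6.18%) and set 2 had 245 among 3409 (7.19%). For comparison, 235 kept cells had 3 or more neuroblast UMIs and none of the mitotic genes (median 2111 UMIs), and 907 had 3 or more mitotic UMIs and none of the 6 neuroblast genes (dividing cells without Dlx UMIs, median 3354 UMIs). Called doublets, which were not removed, were 3.74% of members, 3.40% of the Dlx-positive cells without mitotic UMIs and 5.07% of the dividing cells without Dlx UMIs, against 1.75% of all kept cells outside the members. Of the 48 barcode sequences found in both sets, 3 belonged to a member, and none had both of its barcodes among the members. With no replicate cultures, no difference below was tested. All levels are UMIs per 1000000 UMIs of the summed cells (CPM), a pair of values in parentheses gives set 1 and set 2, and intervals are at 95% and cover counting error only.

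Few members lay at the mitotic threshold, and many lay at the neuroblast threshold. Members carried 3 to 12 neuroblast UMIs (median 4) and 3 to 79 mitotic UMIs (median 14). Exactly 3 neuroblast UMIs were found in 311 members, and 464 further dividing cells had exactly 2. On the mitotic side 75 members had exactly 3 UMIs, and 98 further Dlx-positive cells had exactly 2. Tubb3, which the choice did not use, stood at 848 CPM in the members with exactly 3 neuroblast UMIs and at 771 CPM in the dividing cells with exactly 2; Sox11 stood at 1046 and 934 CPM in the same order. The 1407 barcodes removed by the cell filter held 0 that met both thresholds, which allows a share of up to 0.213% meeting them. At a median of 1084 UMIs, against 3248 in members, these barcodes were less able to reach the thresholds. The 0 therefore does not bound how many dividing neuroblasts were removed.

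**Figure D1:**
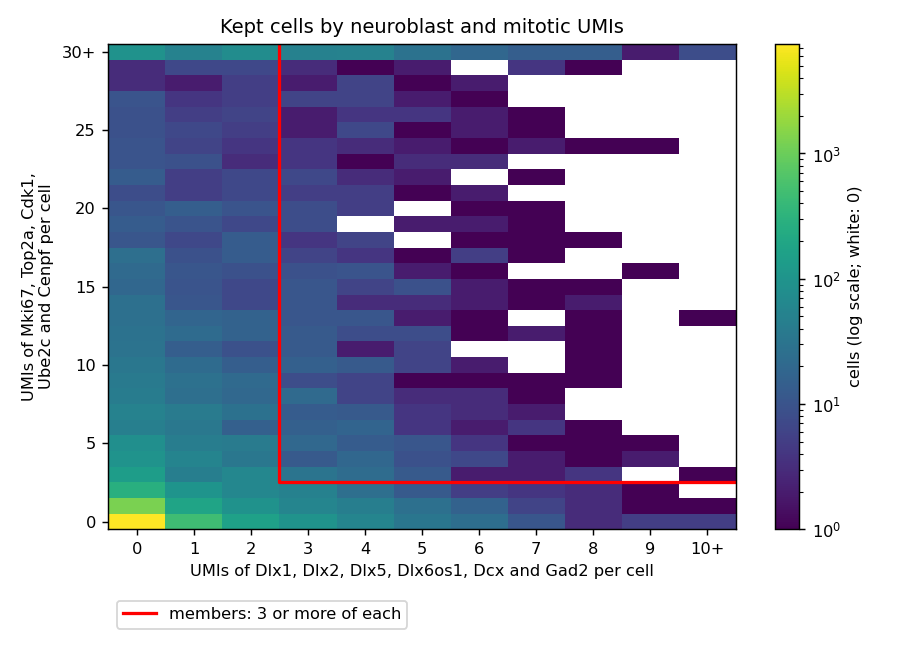
Kept cells by their summed UMIs of the 6 neuroblast genes (x axis, 10 or more pooled) and of the 5 mitotic genes (y axis, 30 or more pooled), with the colour giving the number of cells on a log scale. The red line bounds the 855 members; cells continue without a gap across its left edge, and mitotic UMIs among members spread up to 79.

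Most members were recognised by several genes of each kind. Of the 6 neuroblast genes, 1 was found in 91 members, 2 in 298, 3 in 312, 4 in 123, 5 in 28 and all 6 in 3. All 5 mitotic genes were found in 400 members (46.8%). Only 7 members had no UMI of a Dlx gene and were carried by Dcx and Gad2.

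Dlx1 and Dlx2, neighbouring homeobox genes that specify GABAergic fate, were the commonest of the neuroblast genes. At least 1 UMI of Dlx1 was found in 707 of 855 members (82.7%) and of Dlx2 in 436 (51.0%). In collagen-rich cells, which should lack both and had a median of 4447 UMIs, the shares were 3.74% and 0.535% of 187 cells. Members were left out of the collagen-rich cells by definition. None of those cells reached 3 neuroblast UMIs, which was fixed in advance for the 43 with 3 or more mitotic UMIs.

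The levels of the 6 neuroblast genes per UMI are partly set by the choice: both members and the Dlx-positive cells without mitotic UMIs had a median of 4 neuroblast UMIs, at median depths of 3248 and 2111 UMIs. By the 1.5-fold rule given below, 2 of the 6, Dlx6os1 and Dcx, were lower in members, and 1 with median-of-ratios scaling. Dlx1 stood at 519 CPM in members (499 in set 1 and 571 in set 2) and at 669 CPM in the Dlx-positive cells without mitotic UMIs (660 and 699). Dlx2 stood at 216 CPM in members and 212 CPM in the others. Dlx6os1, a long non-coding RNA, stood at 108 CPM (106 and 111) in members and 325 CPM (318 and 350) in the others, the widest gap among the 6 genes. Dcx, a microtubule protein of migrating neuroblasts, stood at 91.6 CPM in members and 165 CPM in the others. Gad2, a GABA-synthesising enzyme, stood at 182 CPM in members and 290 CPM in the others, and Dlx5, another Dlx homeobox gene, at 165 CPM in members and 275 CPM in the others. Dlx6os1 (chr6:6820189-6871592, minus strand of GRCm38) spans Dlx6 (chr6:6863334-6868568, plus strand), and the sources used here do not say whether counting used strand, so the split of reads between them is uncertain.

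Of the markers that name these cells, Dlx1, Dlx2, Dlx6os1 and Top2a were part of the choice. Top2a, the topoisomerase that untangles chromosomes, stood at 1424 CPM in members and 872 CPM in dividing cells without Dlx UMIs. The other mitotic genes of the choice stood in members at 1576 CPM for Ube2c, 1079 for Cenpf, 869 for Cdk1 and 459 for Mki67, and in dividing cells without Dlx UMIs at 903, 874, 559 and 349 CPM. Cenpa, the centromeric histone, was not part of it. Cenpa had 1 or more UMIs in 588 members (68.8%) and stood at 712 CPM (705 and 731) in members. It stood at 234 CPM (229 and 250) in the Dlx-positive cells without mitotic UMIs and at 659 CPM (632 and 738) in dividing cells without Dlx UMIs. All 5 markers were found in members, but the presence of Dlx1, Dlx2, Dlx6os1 and Top2a was partly set by the choice. Dlx6os1 had 1 or more UMIs in 226 members (26.4%) and in 42.6% of the Dlx-positive cells without mitotic UMIs.

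Cells with UMIs of the 6 neuroblast genes carried mitotic transcripts far more often than cells without them. Both counts use the genes that chose the members, so the shares are a description. The cells without a neuroblast UMI were not split by cell type. Among all 1342 kept cells with 3 or more neuroblast UMIs, 855 (63.7%) had 3 or more mitotic UMIs, against 907 of 9897 cells without a neuroblast UMI (9.16%). The shares by set were 62.0% and 68.4% with 3 or more neuroblast UMIs, and 9.08% and 9.41% without any. The cells with 1 to 2 neuroblast UMIs stood between, at 48.1%. After each cell was thinned to 2000 UMIs, which left out 2483 shallower cells of which 61 were members, the shares were 10.7% for 0, 51.5% for 1 to 2 and 58.5% for 3 or more. In thinned cells with 6 or more neuroblast UMIs the share was 46.9% of 64 cells (interval 34.3 to 59.8%), below that of the cells with 3 to 5 (59.8%, interval 55.7 to 63.8%), and the intervals overlap.

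**Figure D2:**
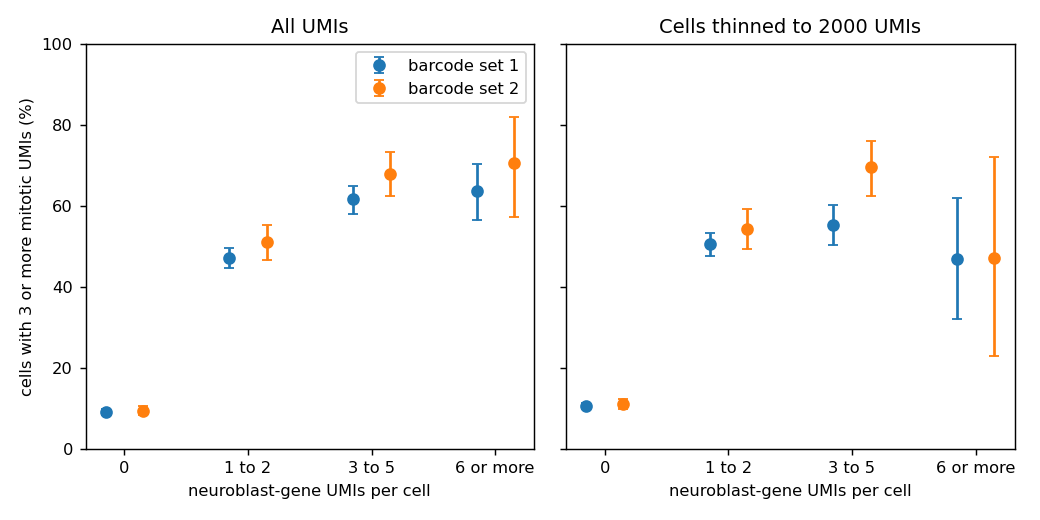
Percentage of kept cells with 3 or more mitotic UMIs (y axis) by neuroblast-gene UMIs per cell (x axis, low to high) in barcode sets 1 and 2, with exact binomial 95% intervals, from all UMIs (left) and after thinning to 2000 UMIs (right). In both sets and at both depths, cells with no neuroblast UMI lie near 10% and all other bins above 40%.

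The transcription factors of the interneuron lineage, outside the rule genes, were largely as abundant in members as in the Dlx-positive cells without mitotic UMIs. A gene was called higher or lower where CPM + 5 differed at least 1.5-fold towards the same side in each barcode set, with 50 or more UMIs over both groups, and this is a rule of size without a test. Of 14 such factors measured out of 21 in the list, 1 was called higher and 2 lower in members, and the median log2 ratio was 0.07. Over all 6054 genes measured in this comparison, 468 were called higher (7.73%) and 237 lower (3.91%), and the median was -0.03.

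Sox11, a factor of early neuronal differentiation, stood at 1188 CPM (1186 and 1194) in members and 1471 CPM (1482 and 1432) in the Dlx-positive cells without mitotic UMIs. Sp9, a zinc-finger factor of striatal and olfactory interneurons, stood at 30.8 CPM (interval 24.7 to 37.8) in members and 26.0 CPM (14.2 to 43.6) in the others. Neither gene differed by 1.5-fold.

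The same held for most other factors of the list. Meis2 stood at 359 CPM in members and 446 CPM in the Dlx-positive cells without mitotic UMIs. Dlx6 stood at 24.3 CPM in members and 24.1 CPM in the others. Etv1, Tshz1, Six3 and Nr2f1 lay between 29.1 and 63.3 CPM in members, and none was called. Gsx2, a factor of the progenitor stage, had 27 UMIs in members, 9.23 CPM, and Sp8 had 17 UMIs, 5.81 CPM. Pbx3 (10.3 CPM) and Nr2f2 (9.92 CPM) were also scarce, and Foxp4, Zfp503 and Vax1 had 3 or 4 UMIs each.

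The 3 called factors fell on either side. Pax6, a progenitor factor that also specifies some olfactory interneurons, stood at 76.6 CPM (79.2 and 69.7) in members and 33.4 CPM (38.2 and 16.7) in the Dlx-positive cells without mitotic UMIs. Sox4, a relative of Sox11, stood at 596 CPM (592 and 608) in members and 945 CPM (954 and 916) in the others. Prox1, a homeobox gene of differentiating neurons, stood at 18.8 CPM in members and 39.0 CPM in the others. Factors of other neuronal fates were close to absent in members: 8 of 12 had no UMI, among them Eomes, Neurog2 and Tbr1 of the glutamatergic lineage, and a count of 0 allows up to 1.03 CPM here. Nkx2-1 had 13 UMIs, Ebf1 10, Lhx6 4 and Foxp2 3. This scarcity was not particular to members, as 8 of the 12 had no UMI in the Dlx-positive cells without mitotic UMIs and 6 in dividing cells without Dlx UMIs. The 12 factors summed to 10.3 CPM in members, 18.6 CPM in the former and 8.65 CPM in the latter.

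Some neuronal genes were less abundant in members. Of 22 measured genes of the neuronal cytoskeleton and migration list, 5 were called lower, 0 higher and 17 neither, with a median log2 ratio of -0.61. Of all genes, 3.91% were called lower and 7.73% higher. With median-of-ratios scaling 3 of the list were called lower, against 2.02% of all genes. The 5 were Tubb3, Cd24a, Elavl3, Elavl4 and Stmn2. Tubb3, the tubulin of young neurons, stood at 1066 CPM (1041 and 1132) in members and 2331 CPM (2316 and 2381) in the Dlx-positive cells without mitotic UMIs. Cd24a, a surface protein of neuroblasts, stood at 452 CPM (426 and 524) in members and 1018 CPM (985 and 1132) in the others. Both barcode sets of members lay below both sets of the others for these 2 genes.

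Elavl3 and Elavl4, RNA-binding proteins that appear as neurons are born, followed the same direction. Elavl3 stood at 159 CPM in members and 319 CPM in the Dlx-positive cells without mitotic UMIs, and Elavl4 at 172 CPM in members and 292 CPM in the others. Not every neuronal gene differed. Stmn1, a microtubule regulator with a high level in both, stood at 2704 CPM in members and 2745 CPM in the others, and Nrxn3, a presynaptic adhesion gene, at 78.0 CPM in members and 89.1 CPM in the others. Nnat and Tubb2b lay lower in members, at 880 against 1176 CPM and 695 against 1135 CPM, without being called. When cells were thinned to 2000 UMIs, Tubb3 and Elavl3 were no longer called, with log2 ratios of -0.67 and -0.58, against -1.13 and -0.99 at full depth.

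Among genes called lower in members with 100 or more UMIs in the other group, Mllt11 had the smallest ratio, at 97.5 CPM (106 and 73.5) in members and 332 CPM (337 and 316) in the Dlx-positive cells without mitotic UMIs. Btg2, an antiproliferative gene of progenitors that make neurons, stood at 85.5 CPM (82.4 and 93.7) in members and 228 CPM (220 and 258) in the others. Zmiz1, a transcriptional coregulator, stood at 87.5 CPM in members and 215 CPM in the others. Thrsp, a regulator of lipid synthesis, stood at 180 CPM in members and 429 CPM in the others. The remaining 8 of the 12 with the smallest ratios were Hist1h2bc, Cd24a, Tubb3, Klf7, Elavl3, Gng2, Ctxn1 and Tomm5, with log2 ratios between -1.18 and -0.87. Btg2 was no longer called with thresholds of at least 5 UMIs, at a log2 ratio of -0.55 against -1.37, and Thrsp, Zmiz1, Hist1h2bc, Klf7, Ctxn1 and Tomm5 were each lost under 1 or more of the other thresholds or thinning.

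**Figure D3:**
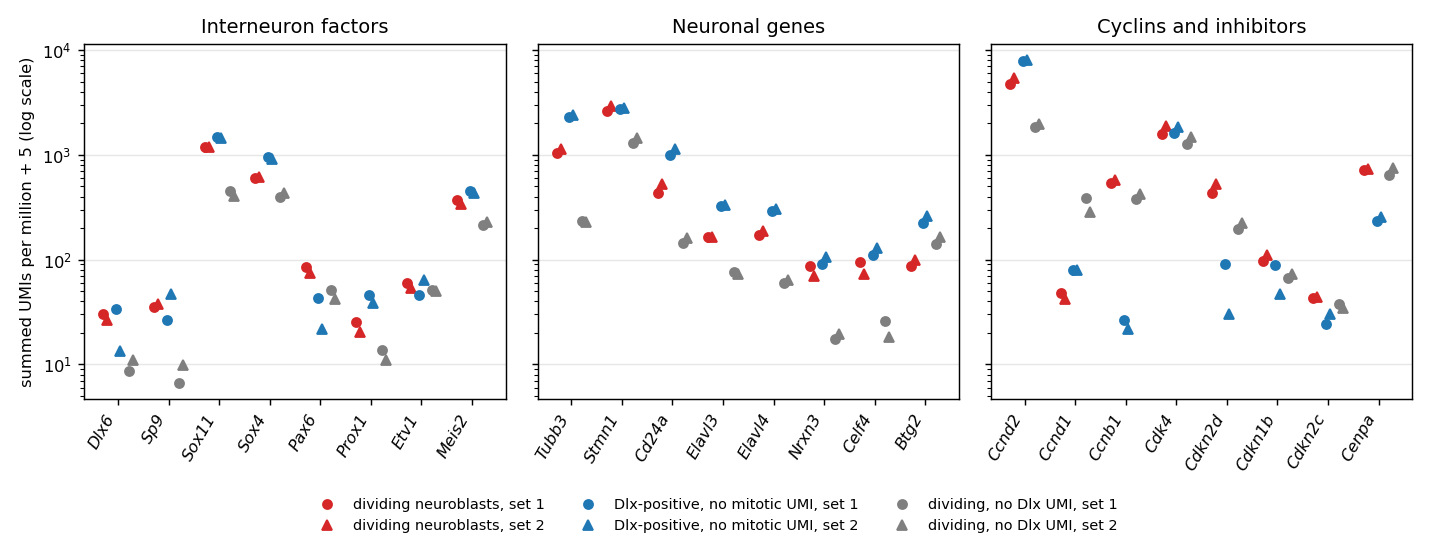
Level of 24 genes as CPM + 5 of summed UMIs (y axis, log scale) in dividing neuroblasts, Dlx-positive cells without a mitotic UMI and dividing cells without a Dlx UMI, each point being 1 barcode set. Sox11, Meis2 and Etv1 of the red and blue groups lie close together, Tubb3, Cd24a, Elavl3 and Btg2 lie lower in dividing neuroblasts than in the blue group, and Ccnd1 is lowest in dividing neuroblasts.

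Among genes of progenitors in commitment, Insm1, a zinc-finger factor of progenitors that delaminate to make neurons, stood at 88.9 CPM in members and 57.6 CPM in the Dlx-positive cells without mitotic UMIs, and reached 1.5-fold in set 2 only. Egfr, the EGF receptor of activated progenitors, stood at 23.3 CPM in members and 48.3 CPM in the others, and was called lower. Mfng, which modifies Notch receptors, stood at 73.9 CPM in members and 175 CPM in the others. In all, 1 of 14 measured genes of this list was called higher, against 7.73% of all genes, and 3 lower, against 3.91%. The 3 were Btg2, Egfr and Mfng. Tcf4, a bHLH factor, stood at 759 and 639 CPM, Hes6, a proneural target, at 287 and 390 CPM, and Gadd45g at 231 and 292 CPM, in members and in the others.

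GABA genes were present at a low level. Abat, the enzyme that breaks GABA down, stood at 18.8 CPM in members and 35.3 CPM in the Dlx-positive cells without mitotic UMIs. Slc32a1, the vesicular GABA transporter, had 40 UMIs in members, 13.7 CPM. Gad1, the second GABA-synthesising enzyme, stood at 29.8 CPM in members and 50.1 CPM in the Dlx-positive cells without mitotic UMIs. Npy, a neuropeptide of some interneurons, had 9 UMIs in all members, 3.08 CPM, and stood at 57.6 CPM (38.2 and 125) in the others. Sst, a peptide of another interneuron class, had no UMI in members.

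Levels were graded along the number of mitotic UMIs. Among cells with 3 or more neuroblast UMIs, Tubb3 stood at 2331, 1808, 1712 and 935 CPM in cells with 0, 1 to 2, 3 to 5 and 6 or more mitotic UMIs. Cd24a stood at 1018, 778, 683 and 406 CPM over the same bins, and Btg2 at 228, 197, 143 and 73.9 CPM. The bins differed in depth, from a median of 2111 UMIs per cell in the lowest to 3442 in the highest, and the part of depth in these gradients was not tested.

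Among cells with 3 or more mitotic UMIs, the same genes ran the other way with neuroblast UMIs. Tubb3 stood at 229, 686, 1010 and 1273 CPM in cells with 0, 1 to 2, 3 to 5 and 6 or more neuroblast UMIs, and Sox11 at 435, 849, 1172 and 1249 CPM. Sp9 stood at 2.47, 18.3, 27.8 and 41.9 CPM. Tubb3 was thus highest in the dividing cells with most neuroblast UMIs. The median depth of the bins lay between 3184 and 3444 UMIs per cell, and the part of depth was not tested. These bins were cut by genes of the choice, and the bin of 0 included 163 cells with markers of other cell types. Btg2 was the exception, with 142, 123, 90.7 and 66.1 CPM from the lowest to the highest bin.

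**Figure D4:**
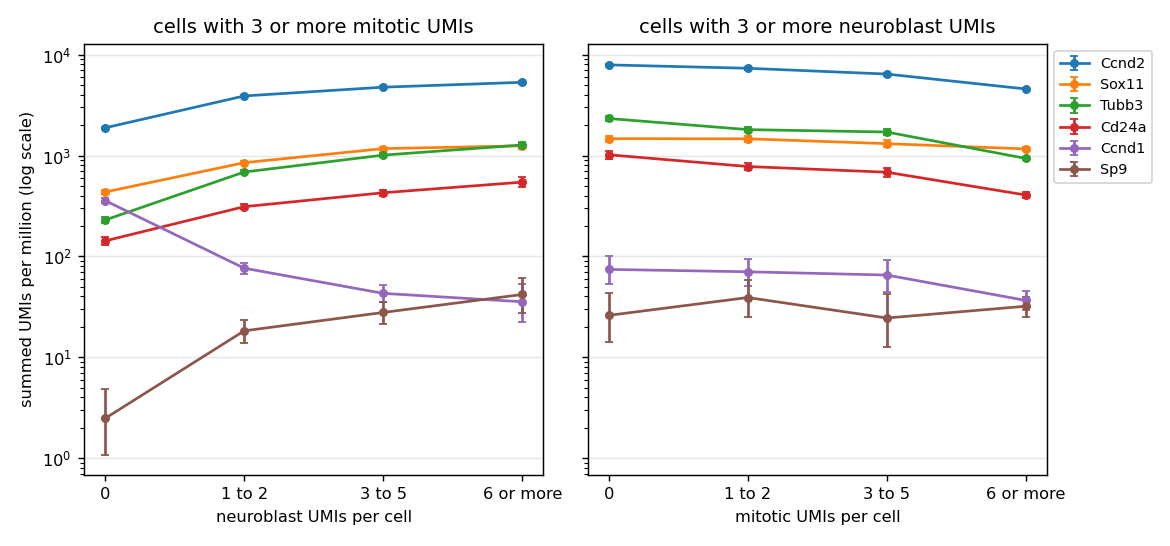
Level of 6 genes in CPM of summed UMIs (y axis, log scale, Poisson 95% intervals) among cells with 3 or more mitotic UMIs by their neuroblast UMIs (left) and among cells with 3 or more neuroblast UMIs by their mitotic UMIs (right). Tubb3 and Cd24a climb with neuroblast UMIs and decline with mitotic UMIs, while Ccnd1 declines steeply along the left axis.

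Genes of G2 and M phase were higher in members than in the Dlx-positive cells without mitotic UMIs, which follows from the choice of cells and is given as a description. All 38 measured genes of this list, rule genes left out, were called higher, with a median log2 ratio of 3.44, and the 12 genes with the largest ratios of all were genes of the spindle, kinetochore and mitotic kinases and their partners. They were Spc25, Hmmr, Plk1, Cdc20, Aspm, Tpx2, Tuba1c, Ccnb1, Cks2, Aurka, Nusap1 and Prc1. Ccnb1, the cyclin that drives entry into mitosis, stood at 541 CPM (528 and 575) in members and 20.4 CPM in the others. Cdc20, an activator of the anaphase-promoting complex, stood at 525 CPM in members and 11.1 CPM in the others, and Plk1, a mitotic kinase, at 221 CPM in members and 1.86 CPM (1 UMI) in the others.

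The 4 G2 and M genes with most UMIs in members were Hmgb2, Arl6ip1, Smc4 and Birc5, with Cenpa following. Hmgb2, a chromatin protein of cycling cells, stood at 4707 CPM (4672 and 4799) in members, 1283 CPM in the Dlx-positive cells without mitotic UMIs and 2684 CPM in dividing cells without Dlx UMIs. Smc4, a condensin subunit, stood at 1038, 191 and 566 CPM in the same order. Birc5, which encodes survivin of the chromosomal passenger complex, stood at 927, 68.7 and 692 CPM. Arl6ip1, an endoplasmic reticulum protein, stood at 1302, 269 and 1091 CPM.

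Promoters of such genes often hold CCAAT boxes, and some hold the cell cycle homology element TTTGAA, both known elements of G2 and M genes. RefSeq promoters (GRCm38.p6) of Hmgb2 (chr8:57511593-57511842, plus strand), Arl6ip1 (chr7:118129626-118129875, minus strand), Birc5 (chr11:117848987-117849236, plus strand) and Cenpa (chr5:30666636-30666885, plus strand) are shown because these genes give much of the mitotic signal of the members and hold different numbers of these elements, Cenpa in place of Smc4. Each is 250 bases upstream of the start, read 5′ to 3′ along the gene's strand, with CCAAT or its reverse complement ATTGG and TTTGAA or its reverse complement TTCAAA in capitals. A match is a description of letters only.
Hmgb2: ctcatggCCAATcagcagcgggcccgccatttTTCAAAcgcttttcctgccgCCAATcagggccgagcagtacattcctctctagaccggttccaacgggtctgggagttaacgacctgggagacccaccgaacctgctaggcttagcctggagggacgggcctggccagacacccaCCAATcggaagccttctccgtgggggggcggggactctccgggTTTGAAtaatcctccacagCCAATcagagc
Arl6ip1: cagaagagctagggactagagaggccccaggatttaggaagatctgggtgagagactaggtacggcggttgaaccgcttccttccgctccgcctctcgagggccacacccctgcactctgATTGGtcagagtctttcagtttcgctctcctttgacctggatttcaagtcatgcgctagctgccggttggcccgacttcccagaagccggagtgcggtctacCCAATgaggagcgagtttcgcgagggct
Birc5: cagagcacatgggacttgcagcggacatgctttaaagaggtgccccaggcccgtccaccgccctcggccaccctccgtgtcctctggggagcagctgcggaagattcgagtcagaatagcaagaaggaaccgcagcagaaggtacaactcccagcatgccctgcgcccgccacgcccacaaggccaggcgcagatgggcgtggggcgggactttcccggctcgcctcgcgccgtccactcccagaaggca
Cenpa: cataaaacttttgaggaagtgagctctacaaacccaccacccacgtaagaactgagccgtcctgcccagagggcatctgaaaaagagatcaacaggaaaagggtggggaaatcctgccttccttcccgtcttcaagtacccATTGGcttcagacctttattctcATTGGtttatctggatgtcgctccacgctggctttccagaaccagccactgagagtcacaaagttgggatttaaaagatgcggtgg

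Hmgb2 held 4 CCAAT boxes and 2 copies of TTTGAA, Arl6ip1 and Cenpa held 2 CCAAT boxes each and no TTTGAA, and Birc5 held neither. A CCAAT box on either strand was found in 23 of the 32 G2 and M genes with a promoter in the table (71.9%), in 12 of 21 S phase genes (57.1%), in 9 of 15 interneuron factors (60%) and in 34.5% of all 27025 promoters. TTTGAA was found in 8 of 32, 2 of 21, 3 of 15 and 16.3% in the same order.

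More UMIs of the G2 and M list than of the S phase list were found in 713 members (83.4%), and 132 members (15.4%, interval 13.1 to 18.0%) had more of the S phase list, with 10 ties. The S-richer share was 15.2% in set 1 and 15.9% in set 2, and 46 members lay within 2 UMIs of balance. The choice by 5 genes of late cycle weighs towards G2 and M, and so do the unequal lists, of 38 and 25 genes with summed levels of 17356 and 5209 CPM in members, so the balance point is not a boundary between phases. Dividing cells without Dlx UMIs, chosen by the same genes, were S-richer in 16.2% of 907 cells, and the Dlx-positive cells without mitotic UMIs in 49.8% of 235. Of those 235 cells, 92 lay within 2 UMIs of balance and 22 were ties, at medians of 7 S phase and 6 G2 and M list UMIs. They were chosen to lack UMIs of the 5 late-cycle genes, so their share is partly set by the choice. After thinning, the shares were 14.5% of 379 members, 52.7% of 129 Dlx-positive cells without mitotic UMIs and 12.9% of 907 dividing cells without Dlx UMIs.

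**Figure D5:**
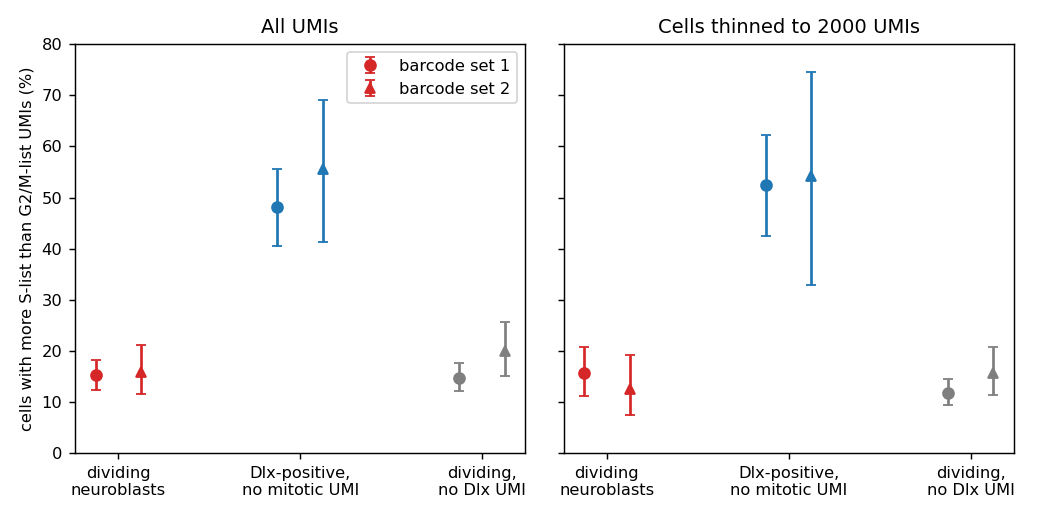
Percentage of cells with more UMIs of the S phase list than of the G2 and M list (y axis) in dividing neuroblasts, Dlx-positive cells without a mitotic UMI and dividing cells without a Dlx UMI, by barcode set, with exact binomial 95% intervals, from all UMIs (left) and thinned to 2000 UMIs (right). Dividing neuroblasts and the other dividing cells lie between 11% and 21% in every set, and the Dlx-positive cells without mitotic UMIs above 48%.

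Within the members, the 132 S-richer and the 713 G2- and M-richer cells are a split by the cells' own transcripts, so the genes of the 2 lists separate them by choice. The 6 named genes highest in the S-richer members were Hells, Mcm3, Dtl, Chaf1b, Mcm6 and Dscc1, and those highest in the G2- and M-richer members were Cdc25c, Ube2c, Cenpa, Tuba1c, Cdc20 and Hmmr. The S-richer members were shallower, with a median of 2991 UMIs against 3341, and the part of depth was not tested. Tubb3 stood at 1493 CPM in S-richer members and 992 CPM in G2- and M-richer members, and Cd24a at 620 and 424 CPM in the same order. Neither gene reached 1.5-fold in both sets, and Elavl4 and Stmn1 had log2 ratios of -0.22 and -0.06. Dlx1, at 546 and 514 CPM, and Sox11, at 1144 and 1198 CPM, were nearly level.

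S phase genes were less uniform than the mitotic genes between members and the Dlx-positive cells without mitotic UMIs. Of 24 measured, 6 were called higher, 3 lower and 15 neither, against 7.73% higher and 3.91% lower of all genes. Rrm2, a ribonucleotide reductase subunit, stood at 893 CPM in members and 390 CPM in the others, and Tyms, thymidylate synthase, at 458 CPM in members and 158 CPM in the others. Mcm3, a helicase subunit, stood at 121 CPM in members and 195 CPM in the others, and Cdc6, an origin licensing factor, at 25.6 CPM in members and 52.0 CPM in the others. Pcna, the sliding clamp of replication, at 581 and 381 CPM, was not called, and Dut, which clears dUTP, at 464 and 234 CPM, was called higher.

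Among D-type cyclins, members carried Ccnd2 at a high level and little Ccnd1 or Ccnd3. Ccnd2, which holds progenitors in cycle, stood at 4884 CPM (4695 and 5393) in members, 7930 CPM (7907 and 8010) in the Dlx-positive cells without mitotic UMIs and 1883 CPM (1855 and 1963) in dividing cells without Dlx UMIs. Ccnd1 stood at 41.4 CPM (43.1 and 36.7) in members, 74.3 CPM in the Dlx-positive cells without mitotic UMIs and 358 CPM (384 and 279) in dividing cells without Dlx UMIs. Ccnd2 was found in 852 of 855 members and Ccnd1 in 92. Among dividing cells, Ccnd1 stood at 358, 76.4, 43.0 and 35.5 CPM and Ccnd2 at 1883, 3899, 4765 and 5324 CPM in bins of 0, 1 to 2, 3 to 5 and 6 or more neuroblast UMIs, so the pair ran in opposite directions. Ccnd3 stood at 23.3 CPM in members and 47.6 CPM in dividing cells without Dlx UMIs, a call that was lost without the comparison cells that hold markers of other types (log2 ratio of -0.75). Cdk4, the kinase these cyclins bind, was level, at 1661, 1651 and 1310 CPM in the order of the 3 groups, and Cdk6 and Cdk2 stood at 89.6 and 26.0 CPM in members.

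Cdkn2d, an INK4-type inhibitor of Cdk4 and Cdk6, stood at 453 CPM (429 and 519) in members, 72.4 CPM in the Dlx-positive cells without mitotic UMIs and 199 CPM (193 and 218) in dividing cells without Dlx UMIs. Both sets of members lay above both sets of either comparison. Its level in members was 189 CPM in S-richer cells and 502 CPM in G2- and M-richer cells. Among dividing cells it stood at 199, 287, 447 and 479 CPM in bins of 0, 1 to 2, 3 to 5 and 6 or more neuroblast UMIs.

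Cdkn1b, a general cyclin-dependent kinase inhibitor, stood at 95.4 CPM in members, 74.3 CPM in the Dlx-positive cells without mitotic UMIs and 63.3 CPM in dividing cells without Dlx UMIs. Cdkn1a, a p53 target, stood at 289, 260 and 494 CPM in the same order. Cdkn2c stood at 38.6, 20.4 and 31.8 CPM, and Cdkn1c had only 8 UMIs in members. Cdkn3, a mitotic phosphatase, stood at 67.4 CPM in members and 18.6 CPM in the Dlx-positive cells without mitotic UMIs, and was called higher, as were Rb1, Rbl1 and Fzr1. In this comparison 5 of 17 measured genes of the list were called higher and 1, Ccnd1, lower, against 7.73% and 3.91% of all genes. The choice of cells by mitotic genes bears on these counts.

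Of the other genes of that list, E2f1, Btg1 and Trp53 stood at 16.1, 13.7 and 160 CPM in members and were not called, and E2f3, at 12.7 CPM, had too few UMIs for this comparison. Microcephaly genes, whose loss shrinks the brain through faulty progenitor mitosis, were present in dividing neuroblasts. Of 12 measured, 7 were called higher than in the Dlx-positive cells without mitotic UMIs, against 7.73% of all genes. Those cells were chosen to lack mitotic UMIs, so the count is partly set by the choice. Aspm, a spindle pole protein, stood at 136 CPM in members and had no UMI in the others, and Nde1, at 145 CPM in members, stood at 37.1 CPM in the others. Casc5, a kinetochore scaffold, stood at 140 CPM in members, and Cit, a cytokinesis kinase, at 107 CPM, and each had 7 UMIs in the others. Among chromatin proteins, in the same comparison and with the same limit, 6 of 22 were called higher and none lower. Of all genes, 7.73% were called higher and 3.91% lower. H2afz, a histone variant, stood at 6994 CPM in members and 4126 CPM in the others, and H3f3b at 6347 CPM in members and 3255 CPM in the others. Hmgb1, at 3140 and 2407 CPM, and H3f3a, at 2553 and 2888 CPM, were not called.

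Beside dividing cells without Dlx UMIs, members had higher levels of interneuron and neuronal genes. Of 8000 genes measured, 176 were called higher in members (2.2%) and 570 lower (7.12%), and the median log2 ratio was -0.06. Of 17 measured interneuron factors 8 were called higher and none lower, and of 22 neuronal genes 12 were called higher and 1 lower. Sox11 stood at 1188 CPM in members and 435 CPM in dividing cells without Dlx UMIs, and Sp9 at 30.8 and 2.47 CPM in the same order. Dlx6 stood at 24.3 CPM in members and 4.32 CPM in the others. The 1 neuronal gene called lower was Mapt, which encodes tau, at 52.0 CPM in members and 141 CPM in the others.

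The genes with the largest ratios in this comparison included Ibsp, Arl4d, Nrxn3, Tubb3, Bcl11b, Lmo3, Celf4, Tiam2, Abracl, Bcl11a and Cd24a. Ibsp, a sialoprotein best known from bone, led the list with 56.4 CPM (51.5 and 69.7) in members, 85.4 CPM in the Dlx-positive cells without mitotic UMIs and 3.71 CPM in dividing cells without Dlx UMIs. Bcl11b and Bcl11a, zinc-finger factors of neurons, stood at 55.4 and 96.4 CPM in members with log2 ratios of 1.96 and 1.66. Abracl, an actin regulator, stood at 455 CPM in members and 124 CPM in the others, and the remaining genes named had log2 ratios of at least 1.63. Lmo3, a LIM-only cofactor, was the exception among them in also being called higher than in the Dlx-positive cells without mitotic UMIs, at 84.8 CPM in members and 50.1 CPM there.

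The genes called lower than in dividing cells without Dlx UMIs were led by markers of other cell types. The 12 with the smallest ratios were Col1a1, Col1a2, Col3a1, Dcn, H19, Ccnd1, Spp1, Olig1, Pllp, Cldn11, B3gat2 and Serpinf1, among them genes of fibroblasts and of the oligodendrocyte lineage. Col1a1, a fibroblast collagen, stood at 7.18 CPM in members and 225 CPM in dividing cells without Dlx UMIs, and Olig1, an oligodendrocyte lineage factor, at 9.92 and 92.0 CPM. Of the fibroblast and mural markers 6 of 6 measured and of the oligodendrocyte precursor (OPC) markers 7 of 8 were called lower in members. The share called lower among all measured genes was 7.12%. The UMI minimum for a measured gene is summed over both groups, so markers scarce in members passed it mainly through the comparison cells. Fibroblast and mural markers summed to 40.7 CPM in members and 636 CPM in those cells, and OPC markers to 46.2 and 273 CPM. The marker counts are therefore partly set by the minimum. When the 163 comparison cells with 3 or more UMIs of fibroblast and mural, OPC or microglia markers were left out, a step chosen after the values were seen, 150 genes were called higher and 355 lower. That step removes cells by these markers, and the log2 ratios of Col1a1, Col1a2, Col3a1, Dcn, Acta2 and Serpinf1 then lay above 0, between 0.077 and 0.90. Each of these genes then had too few UMIs to be measured, and Spp1 was no longer called. Ccnd1 then stood at 41.4 CPM in members and 242 CPM in the remaining 744 cells, Sox11 at 1188 and 513 CPM, Tubb3 at 1066 and 283 CPM and Cdkn2d at 453 and 204 CPM in the same order.

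Mitotic genes were mostly shared by the 2 kinds of dividing cell, with higher levels in members for some. Of 38 measured G2 and M genes 6 were called higher in members and none lower, with a median log2 ratio of 0.38, and of 25 S phase genes 4 were called higher and none lower. Smc4, Nusap1 and Hmgb2 were among the 6. Over all genes measured in this comparison, 2.2% were called higher. Nusap1, a spindle protein, stood at 491 CPM in members and 266 CPM in dividing cells without Dlx UMIs. Tyms stood at 458 CPM in members and 204 CPM in the others. Members also carried more UMIs of the 5 mitotic genes per cell, a median of 14 against 8, at closely similar total UMIs, and whether this deeper mitotic content accounts for the list differences was not tested.

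Of 12 measured stem cell genes, 5 were called lower in members than in dividing cells without Dlx UMIs, none higher and 7 neither, and with median-of-ratios scaling 3 were called lower. The 5 were Fabp7, Slc1a3, Id1, Id3 and Nes. Over all genes measured in this comparison, 7.12% were called lower. Fabp7, a lipid-binding protein of radial glia, stood at 367 CPM in members and 877 CPM in those cells, and Slc1a3, a glutamate transporter of astrocytes and stem cells, at 88.2 and 209 CPM. Vim, a filament of progenitors, stood at 903 CPM in members and 1383 CPM in those cells, and was not called. Sox2 was level, at 175 CPM in members and 191 CPM in the others, and Sox9 stood at 136 and 112 CPM. Hes5 and Hes1, targets of Notch signalling, had 1 and 0 UMIs in members. Against the Dlx-positive cells without mitotic UMIs no stem cell gene was called in either direction.

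Signalling lists that bear on the treatment held few genes with enough UMIs. Over all genes measured against dividing cells without Dlx UMIs, 2.2% were called higher in members and 7.12% lower, the shares to set beside the counts below. Of the 16 Hedgehog pathway genes 6 were measured against dividing cells without Dlx UMIs, with 1, Cdon, called higher and 2, Smo and Gas1, lower. Cdon, a co-receptor, stood at 19.5 CPM in members and 7.41 CPM in dividing cells without Dlx UMIs. Gli2 had 6 UMIs in members, 2.05 CPM (interval 0.753 to 4.47), Gli1 had none, and Ptch1 stood at 8.21 CPM. Of 8 measured LXR genes, which answer to oxysterols, 4, Apoe, Lpcat3, Pltp and Apod, were called lower than in dividing cells without Dlx UMIs and none higher. Without the comparison cells that hold markers of other types, Apoe stayed lower, Lpcat3 and Pltp were not called (log2 ratios of -0.51 and -0.54), and Apod turned to 1.14. Abca1, a cholesterol exporter, stood at 30.4 CPM in members and 37.1 CPM in those cells. For cholesterol synthesis, 1 of 16 measured genes, Hmgcs1, was called lower, at 36.6 CPM in members and 67.9 CPM in the others, and it was not called with median-of-ratios scaling or, at a log2 ratio of -0.52, without the marker-bearing comparison cells. Fdps and Acat2, the most abundant of that list, stood at 111 and 104 CPM in members and 125 and 91.1 CPM in the others. The Notch pathway list had 0 called higher and 1, Maml2, lower of 8, and Notch1 stood at 121 CPM in members and 137 CPM in the others.

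Transcripts of astrocytes were found in members and differed between the barcode sets. Gfap, an astrocyte filament, stood at 577 CPM in members, 714 in set 1 and 207 in set 2, at 780 CPM (913 and 316) in the Dlx-positive cells without mitotic UMIs and at 827 CPM (905 and 596) in dividing cells without Dlx UMIs. Apoe, a secreted lipoprotein, stood at 1009 CPM (1252 and 353) in members. The summed level of all 9 astrocyte markers was 966 CPM in members, 1307 CPM in the Dlx-positive cells without mitotic UMIs, 1444 CPM in dividing cells without Dlx UMIs and 5868 CPM in all kept cells outside the members, and none of the 9 was at 0 in members. Gfap had at least 1 UMI in 65.5% of members and in 70.6% of the collagen-rich cells, which should lack it. Gfap had 3 or more UMIs in 19.4% of members and 20.3% of the collagen-rich cells, with at most 99 and 66 UMIs in 1 cell. The median depths were 3248 and 4447 UMIs in the same order. Whether the members' Gfap was background RNA was not tested. Aldoc, Aqp4 and Gja1 stood at 95.1, 91.0 and 66.0 CPM in members.

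Other cell types left few counts in members. The 8 OPC markers summed to 46.2 CPM in members, 40.9 CPM in the Dlx-positive cells without mitotic UMIs and 273 CPM in dividing cells without Dlx UMIs, and C1ql1, Olig2, Olig1 and Pdgfra had 35, 32, 29 and 17 UMIs in members. The fibroblast and mural markers summed to 40.7 CPM in members and 636 CPM in dividing cells without Dlx UMIs, with 2 of 9 at 0 in members. Acta2, a smooth muscle actin, had 32 UMIs in members, the most of these markers. Microglial and endothelial markers summed to 4.45 CPM each in members, with 4 of 8 and 2 of 4 at 0, and all 5 erythroid markers were at 0. Ependymal markers summed to 20.2 CPM, with 1 of 6 at 0, and myelin markers to 98.5 CPM, mostly Cnp.

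Scaling shifted the split of calls but not the direction of the lists named here, apart from the Notch pathway median. With median-of-ratios scaling, the median log2 ratio of all genes moved by 0.11 in each comparison. Against the Dlx-positive cells without mitotic UMIs 618 genes were then called higher and 122 lower, in place of 468 and 237, and against dividing cells without Dlx UMIs 267 and 434, in place of 176 and 570. The neuronal cytoskeleton and migration list kept 3 of its 22 genes called lower against the Dlx-positive cells without mitotic UMIs and 12 called higher against dividing cells without Dlx UMIs. Under both scalings, all 38 G2 and M genes were called higher than in the Dlx-positive cells without mitotic UMIs, and 6 than in dividing cells without Dlx UMIs.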

How the data were processed

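Single-cell RNA was counted in 1 pooled matrix, whose deposited values are whole UMI counts per gene and barcode (28692 genes, 14685 barcodes, 41462326 UMIs), made by the authors with Cell Ranger 2.1.1 on mm10, per the submitters' processing notes. The sources used here do not say whether depth was equalised. Cells were filtered, chosen and compared as the report states, in Python 3.11.15 with numpy 2.4.6, scipy 1.17.1, pandas 2.3.3, scikit-learn 1.9.0 and matplotlib 3.10.9. UMIs were summed per group and barcode set, scaled to CPM and compared as log2 ratios of CPM + 5. Intervals are exact Poisson for levels and exact Clopper-Pearson for shares, at 95%, and a count of 0 was taken to allow 3 counts. With 1 pooled sample no p-value was computed. Scrublet (scanpy 1.11.5), run within each set, called 239 of 9869 and 11 of 3409 cells; called doublets stayed in, and leaving them out is an alternative. The comparison was tested on simulated counts. Members, gene lists and rules were chosen with earlier results of these data known.

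The named genes were the rule genes and label markers, the 12 called genes with the largest and the 12 with the smallest ratio in each comparison (100 or more UMIs in the higher group), the 4 most abundant of each list, the interneuron factors and the cyclins and inhibitors in full where a gene had 30 UMIs or more, and 6 and 6 genes between S-richer and G2- and M-richer members. Some genes that this rule names are not reported here. Other genes named from the lists were chosen after their values were seen. Positions are from GENCODE M21 (GRCm38), in which 28339 of 28692 gene IDs (98.8%) were found. The alternatives were 2 other cell filters, thresholds of 2 and 5 UMIs, thinning to 2000 UMIs, no called doublets, Dlx genes alone, CPM + 1, median-of-ratios scaling, no UMI minimum, 2-fold calls and, added after the values were seen, a comparison without cells of other types.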

Additional observations from a re-analysis of the deposited data

How the results depend on the processing

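The share of kept cells that were dividing neuroblasts depended on the thresholds. It was 6.44% as reported and 6.32% without called doublets. It was 5.82% with no cell filter, 8.49% with the stricter filter, 11.1% with at least 2 UMIs of each gene group, 1.91% with at least 5, 3.51% in thinned cells and 4.89% with Dlx genes only. Against the Dlx-positive cells without mitotic UMIs, 468 genes were called higher (7.73% of those measured). This count became 284 (9.53%) with at least 5 UMIs of each gene group and 247 (8.89%) in thinned cells. It became 809 (5.76%) with no UMI minimum and 224 (3.70%) at 2-fold. The 237 called lower (3.91%) became 139 (4.66%), 97 (3.49%), 492 (3.50%) and 37 (0.611%) in the same order, and 122 (2.02%) with median-of-ratios scaling. Against dividing cells without Dlx UMIs, the 176 called higher (2.2%) became 267 (3.34%) with median-of-ratios scaling and 48 (0.6%) at 2-fold. The 570 called lower (7.12%) became 311 (5.95%) in thinned cells and 155 (1.94%) at 2-fold. They became 355 (4.73%) when comparison cells with fibroblast, OPC or microglia marker UMIs were left out. The stricter threshold and thinning left fewer cells and fewer genes to measure (2981 and 2777, against 6054). The cause of the differences in these counts was not tested. Leaving out those comparison cells also reversed the log2 ratios of Col1a1 (0.88), Col1a2 (0.69), Col3a1 (0.90), Dcn (0.76) and Serpinf1 (0.077). Each of these genes then had too few UMIs to be measured. The remaining 33 of 53 alternative values for the share and counts stayed within the interval or within 1.5 times. No paired analysis was possible because the pooled matrix is 1 sample and its barcode numbers are tied to no library. At a median of 3248 UMIs per member, factors such as Sp8 or Gli2, with 17 and 6 UMIs in all members, could not be compared between groups.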
